A study of Mus musculus with 5 samples.

Results

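The 9 genes described here are expressed by oligodendrocytes, the glial cells that wrap axons in myelin. They were chosen by name: Mbp, Mag, Mobp, Mal, Cnp and Cldn11 serve the myelin sheath, and Olig1, Sox10 and Pdgfra mark the lineage that makes it. All 9 had at least 1 probe set among the 12393 genes that the array annotation names singly, and together they had 24 probe sets. The arrays came from laser-microdissected ventromedial hypothalamus (VMH) of C57Bl/6 mice given electroconvulsive seizures (ECS) under isoflurane through ear clip electrodes. There was 1 array of each of 5 groups: 1 shock collected after 2 h, 1 shock after 6 h, 7 shocks collected 2 h after the last, 7 shocks after 6 h, and a sham group handled alike without current and collected at 2 h. Each array held RNA pooled from 2 or 3 animals, and the repeat of the work on other animals that the design mentions was not analysed here. Age and sex of the mice were not stated.

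Oligodendrocyte precursors carry the PDGF receptor alpha and divide in response to its ligand. As they mature, the transcription factors Sox10, Olig1 and Olig2 with the later factor Myrf switch on the myelin genes, and the membrane they produce is spiralled and compacted around axons. The hypothalamus is crossed by myelinated fibres such as the fornix, and precursors persist in it throughout adult life. In bulk tissue, fewer cells of a type and less RNA per cell cannot be told apart.

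A single array per group leaves no replicate error to judge by, and differences are therefore given by size alone, with no test. The deposited values are MAS5 signals, intensities per probe set on a linear scale. A log2 difference below is that of the signal plus a pseudocount of 1.2, after subtracting from each array its median over the kept probe sets, those in the top 50% by mean signal. A gene was called higher or lower at a log2 difference of 1 or more, which is 2-fold, on the brightest of its kept probe sets. The centring matters here: relative to sham, the kept probe sets as a whole lay at -0.13 on the array of 1 shock at 2 h, 0.40 on that of 1 shock at 6 h, 0.51 on that of 7 shocks at 2 h and 0.49 on that of 7 shocks at 6 h. One descriptive field of the samples names the PVN and not the VMH. Of 6 VMH markers 5 had a probe set, and all 5 were kept. The defining factor Nr5a1, named after its values were seen, read 50.4, 173.3, 145.6 and 152.1 on these 4 ECS arrays, in the same order, against 78.5 on the sham array. The medians of the 5 markers against sham were -0.01, 0.74, 0.37 and 0.46 in that order. They include Nptx2, at 1.68, 1.80, 0.95 and 1.58, and Adcyap1, at 0.56, 1.14, 1.17 and 0.94. On their brightest probe sets Slc17a6 stood lower, at -0.01, 0.34, 0.20 and 0.34, as did Cbln1, at -0.18, 0.46, 0.04 and -0.17. The other kept Slc17a6 probe set stood at 0.28, 0.70, 0.67 and 0.66 in the same order. The other kept Cbln1 probe sets ran from 0.04 to 0.10, -0.13 to 0.75, -0.09 to 0.21 and -0.42 to 0.31. The part of these markers in the members' values was not tested.

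Of the 24 member probe sets 19 passed the brightness filter, and they covered 8 of the 9 genes. Sox10 was the exception, with all 3 of its probe sets below it. Over the 8 comparisons, none of the 64 gene differences among these 8 members reached 2-fold. Among all 6665 genes tested, the share called was 13.1% on the 1-shock 2 h array against sham, 14.0% on the 7-shock 2 h array against sham, 15.0% on the 1-shock 6 h array against sham and 14.6% on the 7-shock 6 h array against sham. It was 14.8% for 7 shocks against 1 at 2 h and 17.6% for the same contrast at 6 h. For 6 h against 2 h it was 16.1% after 1 shock and 13.7% after 7 shocks. Among the brightest 25% of probe sets, where 6 of the members lie, the shares called were lower: 5.42%, 6.56%, 7.39% and 7.39% in the 4 comparisons with sham, 7.04% and 9.21% for 7 shocks against 1, and 7.96% and 6.24% for 6 h against 2 h, each in the order just given. No test was made of whether the members differ from other genes in this.

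The median over the 8 members was 0.04 on the 1-shock 2 h array, -0.02 on the 7-shock 2 h array, -0.02 on the 1-shock 6 h array and 0.10 on the 7-shock 6 h array, each against sham. The median of all genes tested in the same comparisons was 0.01, 0.01, 0.07 and 0.02. In each of these 4 comparisons 4 members lay above 0 and 4 below. These comparisons share the sham array, and those at 6 h are not matched to it in time. Between ECS arrays the members' median was 0.16 for 7 shocks against 1 at 2 h, 0.08 for 7 against 1 at 6 h, 0.14 for 6 h against 2 h after 1 shock and 0.12 for 6 h against 2 h after 7 shocks. From its highest to its lowest array a member spanned a median of 0.64 on the centred log2 scale, against 0.99 for all genes tested. Among the brightest 25% of probe sets those spans were 0.41 for 6 members and 0.75 for all 3507 genes.

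**Figure D1:**
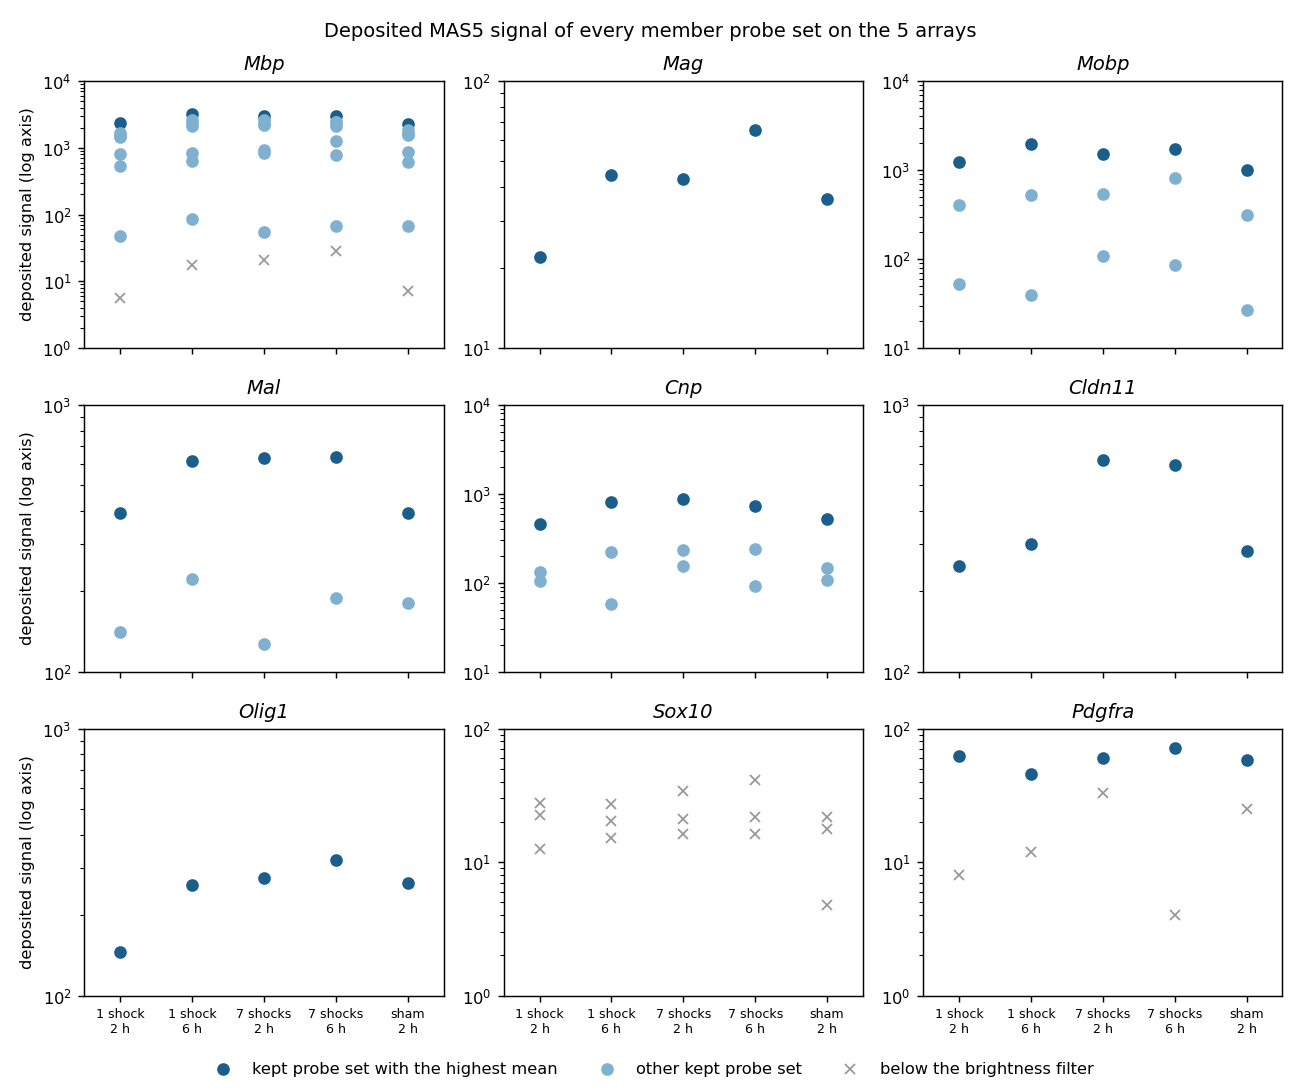
Deposited MAS5 signal (y axis, log scale) of every probe set of the 9 genes on the 5 arrays (x axis), 1 point per probe set and array. Dark points are the brightest kept probe set, light points the other kept ones and crosses those below the brightness filter, among them all 3 of Sox10. These signals are not centred, and the arrays of 1 shock at 6 h and of both 7-shock groups were brighter as a whole than the other 2.

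The structural myelin proteins come first. Mbp encodes myelin basic protein, which holds the cytoplasmic faces of the myelin membrane together. Its brightest probe set read 2361.2 after 1 shock at 2 h, 3163.9 after 1 shock at 6 h, 2970.7 after 7 shocks at 2 h and 2969.7 after 7 shocks at 6 h, against 2302.9 in sham. After centring it spanned only 0.31 on the log2 scale over the 5 arrays. Of its 8 probe sets 7 were kept, and none of these differed by 2-fold in any comparison. Against sham these 7 ran from -0.34 to 0.17 on the 1-shock 2 h array, from -0.79 to 0.03 on the 7-shock 2 h array, from -0.46 to 0.10 on the 1-shock 6 h array and from -0.49 to 0.16 on the 7-shock 6 h array. The 4 brightest Mbp probe sets all stayed within 0.17 of sham on either side. The probe set below the filter read 5.7, 17.4, 21.2 and 28.4 on the ECS arrays, in the order used above for the signals, against 7.1 in sham. Its difference of 1.35 on the 7-shock 6 h array was not shared by any kept Mbp probe set. These probe sets target 1 transcript family and are not replicates of a condition.

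Mobp encodes a small basic protein of compact myelin. On its brightest probe set it read 1217.4 after 1 shock at 2 h, 1953.8 after 1 shock at 6 h, 1517.4 after 7 shocks at 2 h and 1723.1 after 7 shocks at 6 h, against 996.6 in sham. Sham was the lowest array for all 3 Mobp probe sets. Their log2 differences from sham ran from 0.42 to 1.07 on the 1-shock 2 h array, from 0.10 to 1.46 on the 7-shock 2 h array, from 0.14 to 0.58 on the 1-shock 6 h array and from 0.30 to 1.13 on the 7-shock 6 h array. The top of 3 of these ranges came from the dimmest Mobp probe set, which read 52.6, 39.6, 108.9 and 84.8 on the ECS arrays against 26.9 in sham. On the brightest probe set the direction held under no rescaling, a common trimmed mean and quantile normalization.

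Cldn11 encodes claudin-11, which forms the tight junctions that seal the turns of the myelin spiral. It read 248.2 after 1 shock at 2 h, 302 after 1 shock at 6 h, 618.9 after 7 shocks at 2 h and 592.8 after 7 shocks at 6 h, against 283.6 in sham. Both 7-shock arrays thus lay above the other 3 arrays, in the deposited signals as after centring. The share of all genes with this order was not counted, so the order is not shown to be particular to Cldn11. The log2 difference from sham was 0.62 on the 7-shock 2 h array and 0.57 on the 7-shock 6 h array, while it was -0.06 on the 1-shock 2 h array and -0.30 on the 1-shock 6 h array. The comparison of 7 shocks with 1 gave 0.67 at 2 h and 0.88 at 6 h, and this pair of comparisons shares no array. Without rescaling, 3 of these 4 differences of the 7-shock arrays passed 2-fold, at 1.12 and 1.06 against sham and 1.31 against 1 shock at 2 h, where 22.8%, 23.4% and 29.2% of all genes were called. The other, against 1 shock at 6 h, was 0.97. In all alternatives run, the value stayed between 0.56 and 1.12 on the 7-shock 2 h array and between 0.49 and 1.06 on the 7-shock 6 h array. Among these is the difference from the median of the other 4 arrays, which is not a difference from sham. The gene had 1 probe set, so no second reading was at hand. No other kept member had both 7-shock arrays above the other 3 after centring on its brightest probe set, though the dimmest Mobp probe set did.

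Cell type marker lists on the same arrays were set beside Cldn11. On the 7-shock arrays at 2 h and at 6 h, against sham, the neuron list had medians of 0.31 and 0.26 over 12 of 12 genes, with 0 called. The astrocyte list had -0.19 and -0.10 over 12 of 12 genes, also with 0 called. The microglia list had -0.53 and -0.55 over 8 of 12 genes, with 3 and 2 called lower. For 7 shocks against 1 at 6 h, where Cldn11 stood at 0.88 and 17.6% of all genes were called, the neuron list had a median of 0.10 with 3 of 12 called higher. These were the neurofilament gene Nefm (1.27), the synaptic vesicle gene Syt1 (1.08) and the neuronal splicing factor gene Rbfox3 (1.06), named after their values were seen. Of the 12 neuron genes only 7 lay above 0 there, and the lowest was Uchl1 at -0.37. In the same comparison 1 astrocyte marker was called higher, and 1 microglia and 2 endothelial markers were called lower. For 7 shocks against 1 at 2 h, the neuron median was 0.26 with 0 called. Summed over its 12 genes and divided by the median of the kept probe sets, the neuron signal was 195.5 and 185.9 on the 1-shock arrays at 2 h and 6 h, 198.1 and 204 on the 7-shock arrays at 2 h and 6 h, and 174.5 on the sham array. The same sum over the 8 members was 66.7, 67.5, 60.8, 62.6 and 60.2 in that order. Mbp and Mobp made up most of the members' sum, with 2302.9 and 996.6 of a summed signal of 4855.2 in sham. The part of cell composition in the Cldn11 values was not tested.

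Mal encodes a lipid raft protein that sorts proteins and glycolipids into myelin. Its brightest probe set read 392, 616.2, 632 and 634.7 after 1 shock (2 h), 1 shock (6 h), 7 shocks (2 h) and 7 shocks (6 h), against 392.4 in sham, and spanned just 0.25 after centring. The second probe set read 141.4, 222.9, 127.3 and 189.1 in the same order, against 181.3 in sham. It stood at -1.01 on the 7-shock 2 h array against sham, where the brightest one stood at 0.18, so the pair of probe sets pointed in opposite directions there. The same was true in each of the other 3 comparisons with sham.

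Cnp encodes a phosphodiesterase that keeps cytoplasmic channels in the myelin sheath open. The brightest Cnp probe set read 454.9 after 1 shock at 2 h, 805.3 after 1 shock at 6 h, 881.1 after 7 shocks at 2 h and 725 after 7 shocks at 6 h, against 522.6 in sham, and differed from sham by no more than 0.25. The next one stayed within 0.25 of sham as well. The dimmest read 104, 57.8, 152.9 and 91.3 on the ECS arrays, against 107.6 in sham. It was at -1.28 on the 1-shock 6 h array against sham and at -1.36 for 6 h against 2 h after 1 shock. In those 2 comparisons the brighter probe sets stood at 0.23 and 0.20, and at 0.29 and 0.21, so the low reading belonged to 1 of the 3.

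Mag encodes a sialic acid binding adhesion protein on the innermost myelin membrane, facing the axon. Its single probe set read 21.9 after 1 shock at 2 h, 44.6 after 1 shock at 6 h, 43 after 7 shocks at 2 h and 65.7 after 7 shocks at 6 h, against 36.1 in sham. These are dim signals, between 1.08 and 2.13 times the median of their array. The lowest was the 1-shock array at 2 h, at -0.56 against sham, and the highest the 7-shock array at 6 h, at 0.36. For 6 h against 2 h, Mag stood at 0.46 after 1 shock and at 0.62 after 7 shocks. Those 2 time comparisons share no array, and both stayed above 0 under all 3 other scalings.

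**Figure D2:**
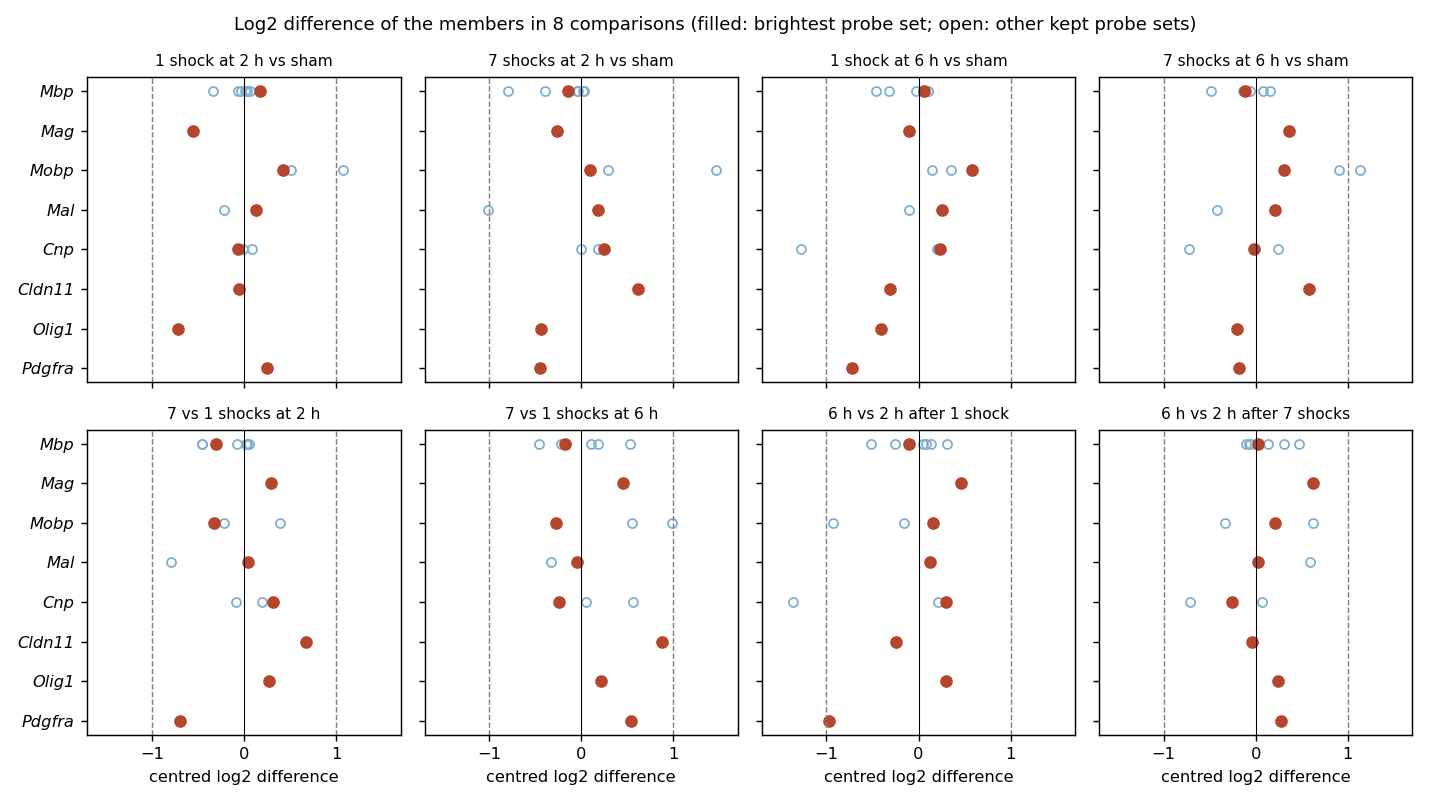
Centred log2 difference (x axis) of the 8 kept members (rows) in the 8 comparisons (panels). Filled points are the probe set that stands for the gene, open points its other kept probe sets and dashed lines the 2-fold limits. All filled points lie inside the limits, and the open points outside them belong to Mobp, Mal and Cnp.

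Over the 19 kept probe sets and 8 comparisons, 6 of 152 differences reached 2-fold, or 3.95% of them, against 15.2% over all 10401 kept probe sets. Of these, 3 were of the dimmest Mobp probe set against sham, 2 of the dimmest Cnp probe set and 1 of the dimmer Mal probe set. The brightest probe set of the same gene did not reach 2-fold in any of these 6 cases. The 15.2% includes dim probe sets and is not matched for brightness. Among genes of the brightest 25% the share called per comparison was 5.42% to 9.21%. Of the 19 probe sets 7 were of Mbp, and the 8 comparisons share arrays. The 2 shares are therefore not a measure of how steady the members were.

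Among the lineage genes, Olig1 encodes a basic helix-loop-helix factor needed for oligodendrocyte maturation and repair. It read 145.9 after 1 shock at 2 h, 260.4 after 1 shock at 6 h, 276.1 after 7 shocks at 2 h and 321.3 after 7 shocks at 6 h, against 263.3 in sham. After centring, sham was the highest of the 5 arrays. The differences from it were -0.71 on the 1-shock 2 h array, -0.44 on the 7-shock 2 h array, -0.41 on the 1-shock 6 h array and -0.20 on the 7-shock 6 h array. Without rescaling the direction was turned for both 7-shock arrays, which then stood at 0.07 at 2 h and 0.29 at 6 h. Only the 1-shock array at 2 h was clearly lower than sham in the deposited signals too.

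Pdgfra encodes the PDGF receptor alpha of oligodendrocyte precursors, which fibroblasts of the meninges carry as well. The kept Pdgfra probe set read 62.4, 45.7, 60.1 and 71.6 after 1 shock (2 h), 1 shock (6 h), 7 shocks (2 h) and 7 shocks (6 h), against 57.7 in sham. The 1-shock array at 6 h was the lowest, at -0.72 against sham and -0.97 against 1 shock at 2 h. With the arrays set to a common trimmed mean the comparison with 1 shock at 2 h reached -1.01. On the 1-shock 6 h array 2 of the 3 kept genes of the pericyte and fibroblast list were called lower than sham as well: the collagen gene Col1a1 at -1.19 and Col1a2 at -1.09. The remaining gene of the list, the pericyte gene Rgs5, stood at 0.20 by the brightest of its probe sets and at -0.53 and -0.26 by the other 2 kept ones. With no brightness filter, over all 8 genes of that list, the median in this comparison was 0.36 and thus of the opposite sign. Summed over those 3 genes and divided by the median of the kept probe sets, the signal was 3.46 on the 1-shock array at 6 h, 4.43 on that at 2 h, 3.67 and 4.04 on the 7-shock arrays at 2 h and 6 h, and 3.43 on the sham array. Most of that sum was Rgs5, with 336.6 on the 1-shock 6 h array and 222 in sham. Col1a1 read 13.1 and 23.6 on these arrays and Col1a2 18.9 and 31.3, so the sum says little about the collagen genes. Both collagen readings on the 1-shock 6 h array lay below its median of 26.9. The part of fibroblasts in the Pdgfra value was not tested. The second Pdgfra probe set, below the filter, read 8, 11.9, 33.1 and 4 on the ECS arrays, in the order used for the first, against 25.1 in sham, and did not follow the first.

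Sox10, the factor that directly switches on most myelin genes, was too dim to be kept. On its brightest probe set it read 27.9, 20.4, 34.2 and 41.3 after 1 shock (2 h), 1 shock (6 h), 7 shocks (2 h) and 7 shocks (6 h), against 17.7 in sham. The 3 Sox10 probe sets differed from each other in sign on the 7-shock 2 h array against sham, with 0.40, -0.91 and 1.38. No order of the groups is read from them.

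The other oligodendrocyte genes were 48 in 4 lists, of which 21 were kept. Called against sham were 2 of the 21 on the 1-shock 2 h array, 3 on the 7-shock 2 h array, 3 on the 1-shock 6 h array and 4 on the 7-shock 6 h array, where the shares of all genes called were those given above. Of the 12 other myelin structure genes 4 were kept, and 0 were called in any comparison with sham. Plekhb1, a pleckstrin homology protein, read 831.2 after 1 shock at 2 h, 1154.5 after 1 shock at 6 h, 881.7 after 7 shocks at 2 h and 898.9 after 7 shocks at 6 h, against 643 in sham. After centring, its differences from sham were 0.50, 0.45, -0.05 and -0.003 in that order, so neither 7-shock array stood above sham. On its brightest probe set the tetraspanin Tspan2 ran from -0.73 to -0.05 against sham, while its other 2 kept probe sets stood at -2.41 and 0.28 on the 1-shock 6 h array. Mog, a glycoprotein gene of the outer myelin surface, was below the filter.

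Of 12 genes of myelin lipid synthesis and oligodendrocyte metabolism 8 were kept, with medians of 0.13, -0.07, -0.42 and -0.36 against sham for 1 shock (2 h), 7 shocks (2 h), 1 shock (6 h) and 7 shocks (6 h). Ugt8a, which makes the myelin lipid galactosylceramide, read 43.6, 34.2, 192.1 and 55.1 after 1 shock (2 h), 1 shock (6 h), 7 shocks (2 h) and 7 shocks (6 h), against 78.4 in sham. It was called lower on the 1-shock 6 h array (-1.56) and stood at 0.77 on the 7-shock 2 h array. Fa2h, which hydroxylates the fatty acids of such lipids, was called lower on the 1-shock 2 h array, at -1.43. That value rests on a signal of 15.8, below the median of 20.3 on that array. Aspa, which splits N-acetylaspartate to supply acetate for lipid synthesis, was called lower on the 7-shock 6 h array, at -1.10. The secreted lipid carrier Apod read 194.9, 488.5, 440.9 and 509.5 on the ECS arrays, in that order, against 158.7 in sham, and was called higher on the 1-shock 6 h array (1.22) and on the 7-shock 6 h array (1.19). Hapln2, a link protein of the matrix at nodes of Ranvier, was called higher in 3 of the 4 comparisons with sham, with 2.50 on the 1-shock 2 h array, 1.7 on the 7-shock 2 h array and 2.05 on the 7-shock 6 h array. Those values rest on a sham signal of 8. Qdpr, which regenerates a cofactor of amino acid hydroxylases, stayed within 0.32 of sham.

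Of the 12 lineage regulators 5 were kept, with medians of 0.57, 0.33, 0.52 and 0.64 against sham for 1 shock (2 h), 7 shocks (2 h), 1 shock (6 h) and 7 shocks (6 h). Tcf7l2, a Wnt pathway factor found in newly formed oligodendrocytes and also in thalamic neurons, was called higher on the 7-shock 2 h array (1.27) and on the 1-shock 6 h array (1.71). On its other kept probe set Tcf7l2 stood at 0.00 and 0.63 there. The homeodomain factor Nkx2-2 stood at -0.54 on the 1-shock 2 h array and between 0.61 and 0.81 on the other ECS arrays. Of the 12 precursor genes 4 were kept. The proteoglycan gene Cspg4, which encodes NG2, was called higher on the 7-shock 6 h array (1.09), with 63.9 against 20.7 in sham. The matrix proteoglycan gene Vcan was called higher on the 7-shock 2 h array (1.27), with 69.6 against 19.5 in sham. Ptprz1, a receptor phosphatase of precursors and astrocytes, was not called and stood at -0.84 on the 7-shock 2 h array.

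Growth factors and receptors that act on the lineage were 12, of which 6 were kept. Pdgfa, the ligand of Pdgfra, read 123.2, 142.5, 140.6 and 152.3 after 1 shock (2 h), 1 shock (6 h), 7 shocks (2 h) and 7 shocks (6 h), against 52.8 in sham. All 4 ECS arrays lay above sham, with 1.34, 1.02, 0.89 and 1.02 in the same order. The second kept Pdgfa probe set gave 0.15, 0.70, -0.24 and 0.02, none of them past 2-fold. Igf1r, the receptor for insulin-like growth factor, was at -1.37 on the 1-shock 2 h array and 1.03 on the 7-shock 6 h array, and between -0.45 and 0.03 on the other ECS arrays. Its reading on the 1-shock 2 h array was 15.8, below the median of 20.3 on that array. Lingo1, a neuronal brake on oligodendrocyte differentiation, was called lower on the 1-shock 6 h array, at -1.91. Fgfr2 (-1.15) and Pdgfc (-1.06) were called lower on the 7-shock 6 h array. The other kept Fgfr2 probe set stood at -0.53 there. On the 1-shock 6 h array it stood at 1.09, where the brightest one stood at -0.40. Pdgfc rests on 25.3 against 38.3 in sham, with a median of 30.9 on the 7-shock 6 h array.

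Of 6 genes of Schwann cell myelin 2 were kept, Pmp22 and Egr2. Pmp22 ran from -0.27 to 0.83 against sham. Egr2, which is also an activity-induced factor of neurons, stood at 2.46 on the 1-shock 2 h array and 2.64 on the 7-shock 2 h array, at 1.85 for 7 shocks at 6 h and at 0.51 on the 1-shock 6 h array. It is described here only as a gene that serves myelination in the peripheral nerve. Of the 10 endothelial markers 4 were kept. Their medians against sham were -0.35 on the 1-shock 2 h array, -0.41 on the 7-shock 2 h array, 0.75 on the 1-shock 6 h array and 0.09 on the 7-shock 6 h array.

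**Figure D3:**
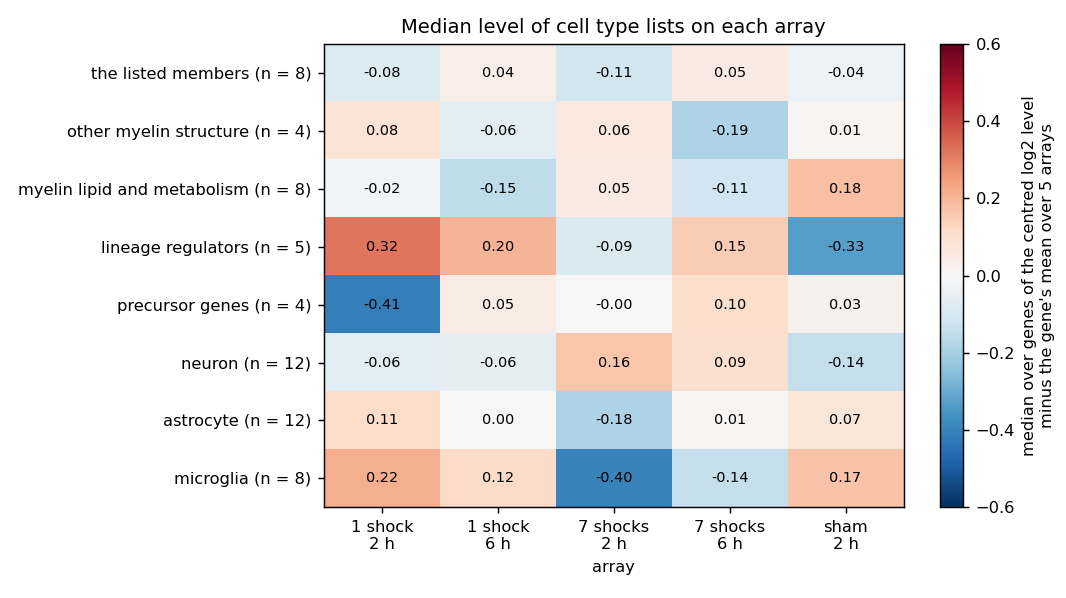
Median over the kept genes of each list (rows, n genes) of the centred log2 level minus the gene's own mean over the 5 arrays, for each array (columns), with the value printed in each cell. The 8 members stay between -0.11 and 0.05. Other myelin structure runs from -0.19 to 0.08, myelin lipid and metabolism from -0.15 to 0.18, neuron from -0.14 to 0.16 and astrocyte from -0.18 to 0.11. The regulators run from -0.33 to 0.32, the precursor genes from -0.41 to 0.10 and the microglia list from -0.40 to 0.22.

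The median profile of the 8 members over the 5 arrays, each gene taken relative to its own mean, spanned 0.16. The non-member genes nearest to it, by the mean absolute log2 difference over the 5 arrays, were Sh3bgrl (0.029), Rps24 (0.029), Hsph1 (0.033), Rcl1 (0.037), Hnrnpd (0.037) and Oaz1 (0.041). The median distance of all genes compared was 0.30. These 6 genes were nearly flat, with spans from 0.11 for Hnrnpd to 0.24 for Rcl1, against a median span of 0.99 for all genes compared. The members themselves lay farther from their own median profile than these 6 genes, from 0.076 for Mal to 0.34 for Cldn11. The 6 genes were picked as the nearest of 6654, so that order was largely set by the choice and says nothing about the members.

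The promoters of 4 members are shown because Mobp was lowest in sham on all 3 probe sets and Cldn11 highest on both 7-shock arrays, and because Mag and Cnp, with Mobp, hold letters known from myelin gene control. The sequences come from RefSeq (GRCm38.p6), run from 250 bases before to 50 after the start of the gene, and are written in the direction of transcription. They lie at chr9:120149492-120149791 on the plus strand for Mobp, chr3:31149670-31149969 on the plus strand for Cldn11, chr7:30914814-30915113 on the minus strand for Mag (1 of its 3 starts) and chr11:100574689-100574988 on the plus strand for Cnp. Capitals mark 2 motifs searched on both strands, the core of the Myrf site CTGGCAC and the Sox core ACAAAG, which reads CTTTGT on the other strand. The 2 motifs do not overlap each other in these windows.
Mobp: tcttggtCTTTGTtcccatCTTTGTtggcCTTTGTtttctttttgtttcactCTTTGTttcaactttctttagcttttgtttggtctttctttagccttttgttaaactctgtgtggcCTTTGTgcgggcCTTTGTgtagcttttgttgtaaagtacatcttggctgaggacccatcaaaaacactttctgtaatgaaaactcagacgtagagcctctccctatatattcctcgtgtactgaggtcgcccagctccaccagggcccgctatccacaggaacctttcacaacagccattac
Cldn11: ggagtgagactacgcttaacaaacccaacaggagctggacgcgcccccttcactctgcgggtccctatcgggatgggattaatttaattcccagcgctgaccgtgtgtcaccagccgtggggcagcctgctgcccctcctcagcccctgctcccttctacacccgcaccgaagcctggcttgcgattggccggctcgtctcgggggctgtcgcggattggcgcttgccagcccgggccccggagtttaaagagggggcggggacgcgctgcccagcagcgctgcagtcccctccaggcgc
Mag: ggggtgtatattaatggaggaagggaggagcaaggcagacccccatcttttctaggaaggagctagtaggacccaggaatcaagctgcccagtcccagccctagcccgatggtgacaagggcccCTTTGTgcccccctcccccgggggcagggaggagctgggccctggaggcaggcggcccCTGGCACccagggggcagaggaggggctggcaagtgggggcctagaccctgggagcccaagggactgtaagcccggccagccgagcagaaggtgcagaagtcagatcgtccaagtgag
Cnp: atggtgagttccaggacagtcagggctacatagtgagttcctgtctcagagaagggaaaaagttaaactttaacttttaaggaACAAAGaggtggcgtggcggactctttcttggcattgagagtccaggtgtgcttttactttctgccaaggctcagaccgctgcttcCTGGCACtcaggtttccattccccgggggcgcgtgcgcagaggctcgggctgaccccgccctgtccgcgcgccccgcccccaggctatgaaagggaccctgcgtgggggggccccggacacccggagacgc
The Mobp window held 6 Sox cores, all on the opposite strand, and no Myrf core. Mag and Cnp each held 1 Sox core and 1 Myrf core, with the Myrf core starting at -68 in Mag and at -81 in Cnp relative to the start. The second Mag window in the table also held both, and the remaining one, at chr7:30914272-30914571, held neither. Neither set of letters was found in this Cldn11 window, nor in those of Mal and Pdgfra. Of all 32851 promoter windows of this length 18.7% held the Sox core and 5.01% the Myrf core. A match of letters is a description and not a binding site.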

How the data were processed

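The deposited intensity values are MAS5 signals, 1 per probe set and array, per the submitters' processing notes, with software version, target intensity and detection calls not given in the sources used here. Per the labels' protocols, nuclei were laser-microdissected and 2 ng of pooled RNA was amplified before hybridisation. The 22690 probe sets included 64 controls, 691 with several gene symbols and 1555 with none in the annotation used here, so 20380 had 1 gene, and RefSeq held 20351 of these by gene ID. The pseudocount of 1.2 is the 10th percentile of all values. The top 50% by mean gave 10401 probe sets and 6665 genes.

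There was 1 array per group, so no test was run; 5 arrays set the precision. The 3' to 5' ratio of the Gapdh control was 8.77 on the 1-shock 2 h array, 5.37 to 5.88 on the other ECS arrays and 6.67 in sham. That of the actin control ordered the arrays differently, with 0.889 and 1.10 on the 1-shock arrays at 2 h and 6 h, 0.783 and 0.593 on the 7-shock arrays, and 0.799 in sham. The members and lists were chosen with earlier results of these data known. Besides all members, the genes named for each list were those called against sham and the 2 brightest, up to 6. The 6 genes nearest to the median profile were named as well. They came from 6654 genes, after a limit on the range that left out only the flattest. The 10 alternatives covered scaling, pseudocount, filter, probe set choice and reference. The code was tested on simulated data. Values were computed with pandas 2.3.3 and numpy 2.4.6 in Python 3.11.15, and plots drawn with matplotlib 3.10.9.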

Additional observations from a re-analysis of the deposited data

Results flagged for a closer look

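The dimmer Pdgfra probe set, which was below the brightness filter, was past 2-fold in opposite directions when 7 shocks were compared with 1, at 1.26 at 2 h and -1.42 at 6 h. The difference between these values, -2.68 (6 h minus 2 h), was not tested, as there was 1 array per group. It rests on signals of 33.1 against 8 at 2 h and 4 against 11.9 at 6 h, and the kept Pdgfra probe set stood at -0.69 and 0.54 in the same comparisons.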

How the results depend on the processing

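Of 592 member values recomputed under the alternatives, 579 moved by less than 1.5-fold without crossing the 2-fold limit, 9 moved by more and 4 crossed it. The 4 were Cldn11 without rescaling (1.12 and 1.06 on the 7-shock arrays at 2 h and 6 h against sham, 1.31 for 7 shocks against 1 at 2 h) and Pdgfra with a common trimmed mean (-1.01 for 6 h against 2 h after 1 shock). The count of members called, 0 of 8 in all comparisons in the main setting, was therefore 1 in each of these 4 comparisons under those settings. The members' median for 7 shocks against 1 at 2 h was 0.80 without rescaling, against 0.16, and the median of all genes moved to 0.64 there; that of the 21 other oligodendrocyte genes was 0.44, against -0.20.

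Counts called among those 21 genes, in the order 1 shock (2 h), 7 shocks (2 h), 1 shock (6 h) and 7 shocks (6 h) against sham, then 7 against 1 shock at 2 h and at 6 h, then 6 h against 2 h after 1 and after 7 shocks, were 2, 3, 3, 4, 6, 2, 4 and 4. The shares of all genes called in this setting are given above. With no brightness filter (33 genes) they were 7, 8, 6, 11, 11, 6, 10 and 8, where 3081 to 3718 of all 12393 genes were called. With the top 25% (10 genes) they were 0, 1, 2, 1, 1, 0, 2 and 0, where 190 to 323 of 3507 genes were called. Without rescaling they were 6 on the 7-shock 2 h array, 5 on the 1-shock 6 h array, 7 on the 7-shock 6 h array and 7 for 6 h against 2 h after 1 shock. In these 4 comparisons 1520, 1424, 1557 and 1820 of all 6665 genes were called. Against the median of the other 4 arrays the count on the 7-shock 6 h array was 1, where 624 of 6665 genes were called. Without cross-hybridising suffixes that for 7 against 1 shock at 6 h was 1, where 1095 of 6308 genes were called. Changes with the filter come with the number of genes tested; the cause of the others was not tested.

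Over all genes 874 to 1171 were called per comparison, 3081 to 3718 with no filter, 190 to 323 in the top 25% and 912 to 1944 without rescaling. Against the median of the other 4 arrays 574 were called on the 7-shock 2 h array and 624 on the 7-shock 6 h array, against 930 and 976. Without rescaling the share of calls in the higher direction was 33.9% on the 1-shock 2 h array and 82.1% to 89.9% for the other ECS arrays against sham, where it had been 47.9% to 50.9%. It was 94.0% and 59.0% for 7 shocks against 1 at 2 h and 6 h (52.0% and 48.9% before), and 89.2% for 6 h against 2 h after 1 shock (51.0% before). Reversals were 4: with no filter, the pericyte and fibroblast median was 0.36 on the 1-shock 6 h array against sham and 0.17 for 6 h against 2 h after 1 shock, and the endothelial median was -0.23 for 6 h against 2 h after 1 shock. Against the median of the other 4 arrays, the microglial gene P2ry12 stood at 0.33 on the 1-shock 6 h array, where it stood at -1.02 against sham. The value of 0.33 is not a difference from sham, so the change of sign comes with a change of reference. No paired analysis was possible because each group had 1 array.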
